A study of Mus musculus with 12 samples.

Results

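The comparison described here sets cells infected with a Myc retrovirus against cells infected with a GFP control retrovirus, all from mice of the floxed genotype that the submitters label Zfx ko. Its members were chosen by sample title: 3 arrays titled Myc with Zfx ko and 3 titled GFP with Zfx ko, which are 6 of the 12 arrays of the series. The other 6 arrays hold the same viruses in cells labelled Zfx wt. Every sample began as c-Kit+ bone marrow cells from mice with CreER, a form of Cre recombinase that is switched on by tamoxifen. The arrays labelled ko are of the genotype Zfx fl/y CreER and those labelled wt of Zfx wt/y CreER, so the control arrays share Cre, tamoxifen, retroviral infection and sorting with the Myc arrays. Mice received 5 mg of tamoxifen a day by gavage for 3 days. Infected cells were kept for 48 hours, GFP+ cells were sorted, and these grew for 4 more days in 20% serum and 10 ng/mL each of the cytokines SCF, IL-3 and IL-6. The sources used here do not give the promoter that drives CreER, the age and strain of the mice, any pooling of animals or the share of cells that lost Zfx. Only the titles tell Myc from GFP arrays, since the treatment label reads the same for both. Nothing says that the 3 samples of a group came from separate animals or cultures, so p-values measure the spread between these arrays, which may be technical. Arrays are called Myc ko 1 to 3 and GFP ko 1 to 3 after their titles.

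Myc is a transcription factor that pairs with Max and binds DNA, often at the E-box, the letters CACGTG. It is known for raising genes that make ribosomes, nucleotides and mitochondria, and in blood progenitors for driving growth and holding back late myeloid maturation. Zfx is an X-linked zinc finger transcription factor that binds close to gene starts. The question the series names is how deletion of Zfx affects the expression that Myc induces, and this comparison gives the Myc side of it in the cells labelled Zfx ko.

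The values are linear RMA intensities, 1 per probe set and array, and differences between groups are given as log2 differences or folds of group means taken on the log2 scale. A gene was called higher or lower where its adjusted p, from limma with Benjamini-Hochberg adjustment over 19938 genes, was under 0.05. That fit did not pair arrays by replicate number, and genes said not to pass may pass with the numbers as a block. Values with the block are given where they change a call. The array medians lay between 127 and 137, and replicates within the ko groups correlated at 0.9878 to 0.9957 across genes. RMA brings arrays to a similar scale, so rises and falls are relative to the other genes. A median difference near 0 over all genes may follow from that processing. The number of arrays, 3 a group, limits the precision.

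The targeted genes were read first. Myc stood at intensities of 2841, 2551 and 2712 in GFP ko 1 to 3 and at 5210, 4746 and 5180 in Myc ko 1 to 3. Every Myc array was above every GFP array, and the rise was 1.87-fold (95% interval 1.67 to 2.09, adjusted p = 3.42e-04). Zfx stood at 996, 972 and 1094 in the GFP arrays and at 1036, 1116 and 991 in the Myc arrays. These overlapped, and their log2 difference was 0.04 (adjusted p = 0.885). The Zfx probe set was no lower in arrays labelled ko than in those labelled wt, at group means of 1021 (GFP) and 1048 (Myc) against 946 and 992. The sources used here do not say where its probes lie in the transcript, so the probe set may not read the deleted part, and "ko" below is the submitters' label.

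Promoter sequences are shown here because they hold the letters that Myc binds beside genes that rose. RefSeq windows of 300 bases (GRCm38.p6, 250 before a gene's start to 50 after it) were found for 15614 of the 19938 genes. The E-box, searched as CACGTG, and a Zfx core motif, searched as AGGCCT, each read the same on both strands, and a match of one cannot overlap a match of the other. Stretches of windows with an E-box are printed 5′ to 3′ on the gene's strand, with the E-box in capitals. They come from Imp4 (chr1:34439673-34439748, plus strand) and Nop2 (chr6:125131788-125131863, plus), which process ribosomal RNA. Paics (chr5:76951064-76951139, plus), Atic (chr1:71557114-71557155, plus) and Ak4 (chr4:101419454-101419529, plus) serve nucleotide synthesis. Tlcd4 (chr3:121263407-121263482, minus), Echdc2 (chr4:108165239-108165314, plus) and Bex4 (chrX:136138952-136138995, plus) are among the 15 largest rises. Of those 15, 10 had a window and 3 of these an E-box. Of the 15 largest falls, 12 had a window and 2 of these an E-box, AA467197 and Ceacam10, which are not printed.
Imp4: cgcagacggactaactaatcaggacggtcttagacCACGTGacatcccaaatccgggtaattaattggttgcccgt
Nop2: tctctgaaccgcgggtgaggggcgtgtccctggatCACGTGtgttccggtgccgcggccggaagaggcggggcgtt
Paics: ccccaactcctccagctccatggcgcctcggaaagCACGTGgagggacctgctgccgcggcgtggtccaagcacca
Atic: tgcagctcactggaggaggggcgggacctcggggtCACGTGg
Ak4: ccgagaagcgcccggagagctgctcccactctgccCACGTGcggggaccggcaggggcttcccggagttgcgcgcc
Tlcd4: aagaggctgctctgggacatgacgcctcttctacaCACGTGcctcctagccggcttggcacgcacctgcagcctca
Echdc2: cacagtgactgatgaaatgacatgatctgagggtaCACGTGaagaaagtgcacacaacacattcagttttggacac
Bex4: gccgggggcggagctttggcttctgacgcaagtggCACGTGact

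In these windows the E-box lay 121 bases before the start of Imp4, 60 before Nop2, 203 before Paics, 7 before Atic and 214 before Ak4. Stretches were printed only where the E-box ended before the start. In other called ribosome biogenesis genes, Grwd1, Nle1, Pes1, Tsr1, Utp20, Utp4 and Wdr43, it lay 2 to 37 bases after the start. Nop2 stood at 1211, 1348 and 1380 in the GFP arrays and at 2115, 2021 and 2184 in the Myc arrays, without overlap, a rise of 1.61-fold (adjusted p = 0.00104). Imp4 rose 1.31-fold (adjusted p = 0.0106) and Atic 1.37-fold (adjusted p = 0.00623). Paics rose 1.23-fold (adjusted p = 0.019; 0.0794 without Myc ko 3, 0.0586 without GFP ko 2 and 0.0534 without Myc ko 1). Ak4, an adenylate kinase gene, rose 1.65-fold, but its adjusted p of 0.0246 was 0.103 without Myc ko 3, 0.0906 without GFP ko 1, 0.0709 without GFP ko 2 and 0.0523 without Myc ko 1. A second probe set of Ak4 gave a log2 difference of 0.53 and did not pass (adjusted p = 0.116). A match is a description of letters and not a binding site.

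The share of genes with an E-box in a window was 9.50% over all genes, 15.5% among genes higher with Myc (217 of 1400), 11.9% among genes lower and 8.74% among genes not called. Among genes at least 1.5-fold higher it was 19.6% (76 of 387), against 11.7% of genes at least 1.5-fold lower. Called genes were brighter than most. Among uncalled genes above the median intensity the share was 11.4%, and the median GC content of their windows was 60.7%, as it was for genes higher, with 20 against 22 CpG a window. These values are given side by side, and their part in the E-box share was not tested. By list, 10 of 41 ribosome biogenesis genes (24.4%), 6 of 24 nucleotide synthesis genes (25%) and 5 of 68 mitochondrial ribosomal protein genes (7.35%) had an E-box. Of 16 red cell genes 0 did, of 21 late neutrophil genes 1 and of 28 mast cell genes 1, and the windows of these 3 lists held a median of 3 to 7 CpG. The Zfx core was held by 11.7% of all genes, 11.6% of genes higher and 14% of genes lower. At a 2-fold minimum the shares were 21.3% of genes higher (13 of 61) and 14% of genes lower (13 of 93), against 19.7% (12 of 61) and 10.8% (10 of 93) for the E-box.

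MicroRNA and small nucleolar RNA genes were counted as well, since both have array probe sets. Over all genes tested 8.58% were higher and 4.59% lower. Of 300 microRNA genes, whose median intensity with GFP was 49.5, 5 were higher and 1 lower. Of 52 small nucleolar RNA genes, at a median intensity of 526, 18 were higher and 0 lower (median log2 difference 0.44), and these RNAs guide the chemical modification of ribosomal RNA. The part of intensity in these counts was not tested. Snora33 stood at 276, 259 and 292 with GFP and at 509, 452 and 500 with Myc, a rise of 1.77-fold (adjusted p = 6.03e-04). Snord42b rose 2.00-fold (adjusted p = 0.00659). Both were picked out after their values were seen, as was the Mir17-92 cluster on chromosome 14, a known Myc target. Its called members and their neighbours are printed with the seed (bases 2 to 8) in capitals, so that members of 1 seed can be read together.
miR-18a-5p: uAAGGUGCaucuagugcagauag
miR-17-5p: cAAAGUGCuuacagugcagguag
miR-20a-5p: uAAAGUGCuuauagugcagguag
miR-19a-3p: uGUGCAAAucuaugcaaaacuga
miR-19b-3p: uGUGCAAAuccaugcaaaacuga

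The sequences are RefSeq's (GRCm38.p6), with miR-18a-5p at chr14:115043867-115043889 and miR-19a-3p at chr14:115044048-115044070 on the plus strand. The seed of miR-17-5p is that of miR-20a-5p, and the seed of miR-19a-3p is that of miR-19b-3p. Probe sets read the precursor or its gene and not the mature arm. Mir18 stood at 145, 175 and 219 with GFP and at 345, 301 and 366 with Myc, without overlap, a rise of 1.90-fold (adjusted p = 0.00847). Mir19a rose 1.52-fold from 52.9, 42.0 and 61.1 to 77.2, 67.4 and 91.2 (adjusted p = 0.0332; 0.134 without Myc ko 3, 0.0965 without GFP ko 2, 0.0793 without GFP ko 1, 0.0716 without Myc ko 1). Mir20a (adjusted p = 0.213), Mir19b-1 (0.269) and Mir17 (0.694) did not pass, although with the replicate number as a block Mir20a (0.0096) and Mir19b-1 (0.035) did. The host gene Mir17hg stood at 151, 120 and 186 with GFP and at 346, 201 and 229 with Myc (adjusted p = 0.0829, and 0.0031 with the block).

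Across all genes 2626 passed the threshold (13.2%), of which 1711 were higher with Myc (8.58%) and 915 lower (4.59%). The rises were many and mostly small, and the falls fewer with a longer tail. The median fold was 1.37 among genes higher and 1.44 among genes lower, and at least 2-fold changes numbered 77 higher and 113 lower. At least 4-fold changes numbered 3 higher and 8 lower, and the 3 genes that changed at least 8-fold all fell. The 3 Myc arrays did not overlap the 3 GFP arrays in 2612 of the 2626 called genes, against 5076 of all genes tested (25.5%). Of these, Myc arrays lay above GFP arrays in 1703 called genes, against 15.6% of all genes, and below in 909, against 9.88%. Of the called genes 2625 kept 1 direction in all 3 same-numbered pairs, and the share over all genes is not given here. The calls rest on the same arrays. Agreement of called genes in overlap and direction therefore follows largely from the threshold and is no separate evidence. With replicate numbers as a block, calls numbered 4959 (24.9%), 2895 higher and 2064 lower, and all 2626 calls were among them. Without Myc ko 3 there were 935 genes higher and 460 lower, without GFP ko 1 there were 1041 and 624, and without GFP ko 3 there were 1354 and 518.

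**Figure D1:**
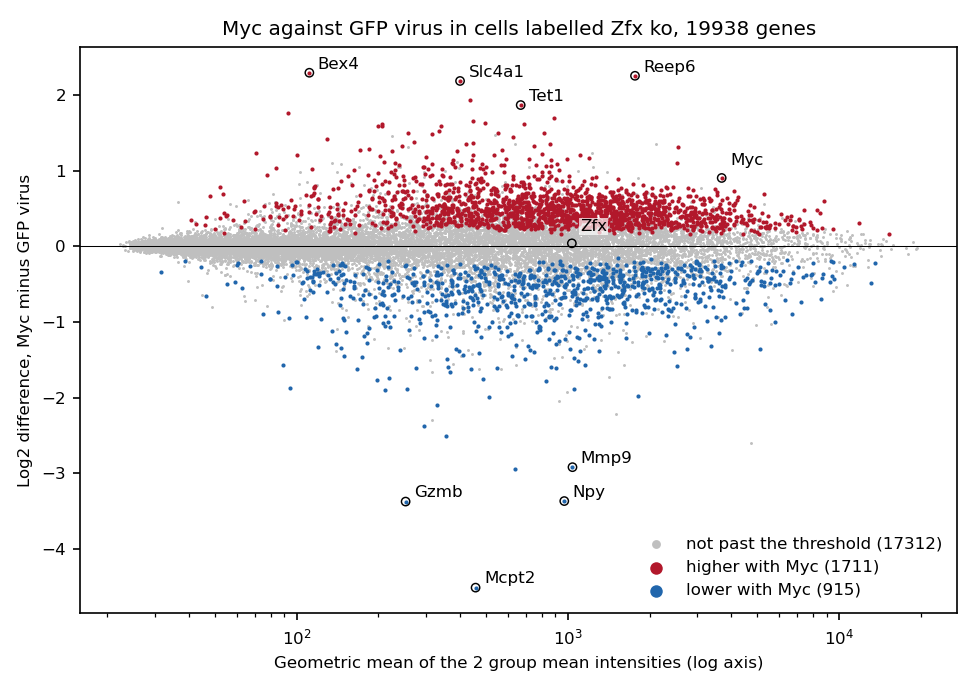
Each dot is 1 of 19938 genes, with the geometric mean of the Myc ko and GFP ko mean intensities on a log axis and the log2 difference (Myc minus GFP virus) on the vertical axis. The 1711 genes higher (red) lie mostly below a log2 difference of 1, while the 915 lower (blue) reach down to Mcpt2 at -4.51, and Zfx lies at 0.04.

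The largest rises and falls, 15 each, were taken from called genes without overlap, so their lack of overlap follows from the choice. The largest rises joined genes of several roles. Reep6, a shaper of the endoplasmic reticulum, stood at 700, 860 and 811 with GFP and at 2670, 3422 and 5769 with Myc, a rise of 4.76-fold (95% interval 2.90 to 7.80, adjusted p = 0.00207). The Myc arrays all lay far above the GFP arrays, and Myc ko 3 was highest. Slc6a15, a carrier of neutral amino acids, stood at 138, 337 and 208 with GFP and at 584, 1007 and 923 with Myc (3.83-fold, adjusted p = 0.00705). Tet1 encodes a 5-methylcytosine dioxygenase. It stood at 261, 544 and 278 with GFP and at 1128, 1354 and 1246 with Myc (3.64-fold, adjusted p = 0.0041), and both of its other probe sets rose as well. Cenpv, a centromere protein gene, went from 417, 592 and 480 to 1492, 1525 and 1751 (3.23-fold, 2.69 to 3.87, adjusted p = 2.65e-04), so that the groups lay far apart. Tlcd4, Echdc2, Spire1, Simc1 and the phospholipid exporter gene Abcb4 rose between 2.99-fold and 3.38-fold. Slc4a1, Ank1, Sptb and Klf1 are described with the red cell genes.

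Of the 15 largest rises 3 missed the threshold when single arrays were left out: Bex4, Spats2 and Slc4a1. Bex4 had the largest fitted rise, 4.89-fold (adjusted p = 0.0295), but its values were 39.8, 69.8 and 33.4 with GFP and 92.4, 353 and 334 with Myc. Myc ko 1 lay close to the GFP arrays, and the 95% interval ran from 1.96 to 12.2. The adjusted p of Bex4 was 0.118 without Myc ko 3, 0.0975 without Myc ko 2, 0.0988 without GFP ko 3 and 0.0943 without GFP ko 1. Spats2 (3.07-fold, adjusted p = 0.0121) missed the threshold without GFP ko 1, at 0.0512, and Slc4a1 is taken up below.

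Of the 15 largest falls, Mcpt2, Gzmb, Tph1 and Fcer1a are in the mast cell and basophil list used below, Mmp9 is in the late neutrophil list, Mmrn1 in the megakaryocyte list and Cd96 in the T and NK list, and the others are in none of the lists. Mcpt2, a mast cell chymase gene, stood at 1852, 1249 and 3190 with GFP and at 47.7, 176 and 74.5 with Myc, a fall of 22.8-fold (9.99 to 51.9, adjusted p = 0.00104). Gzmb, the granzyme B gene that mast cells and cytotoxic lymphocytes express, stood at 945, 985 and 541 with GFP and at 77.5, 84.7 and 69.1 with Myc (10.4-fold lower, adjusted p = 0.00492). All GFP arrays were many times above all Myc arrays in both genes. In these bulk samples, fewer cells of a type and less RNA per cell cannot be told apart.

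Npy, which encodes neuropeptide Y, fell 10.3-fold (6.55 to 16.2, adjusted p = 4.09e-04), from 2664, 2929 and 3715 to 233, 317 and 359. Serpinb10, a serpin gene of marrow cells, fell 7.70-fold, from 1067, 1881 and 1983 to 80.0, 296 and 369 (adjusted p = 0.00778). Mmp9, a gelatinase stored in neutrophil granules, stood at 3375, 1076 and 4229 with GFP and at 308, 183 and 629 with Myc (7.56-fold lower). The pair numbered 2 was lowest within each group for Mmp9, and its adjusted p of 0.0143 was 0.0579 without GFP ko 1 and 0.0555 without GFP ko 3. Ceacam10, Ipcef1, Casp12, AA467197, Cd96 and Mmrn1 fell between 3.67-fold and 5.21-fold. Inhba, the activin A subunit gene, fell 3.42-fold (adjusted p = 0.0202) and Gria3, a glutamate receptor gene, 3.36-fold (adjusted p = 0.0257). The highest adjusted p on leaving out an array was 0.0815 for Inhba and 0.103 for Gria3, both without Myc ko 3. Inhba also missed it without Myc ko 1 (0.064), GFP ko 1 (0.0595) or GFP ko 2 (0.0567), and Gria3 without Myc ko 1 (0.0527), GFP ko 1 (0.0906) or GFP ko 3 (0.0922).

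**Figure D2:**
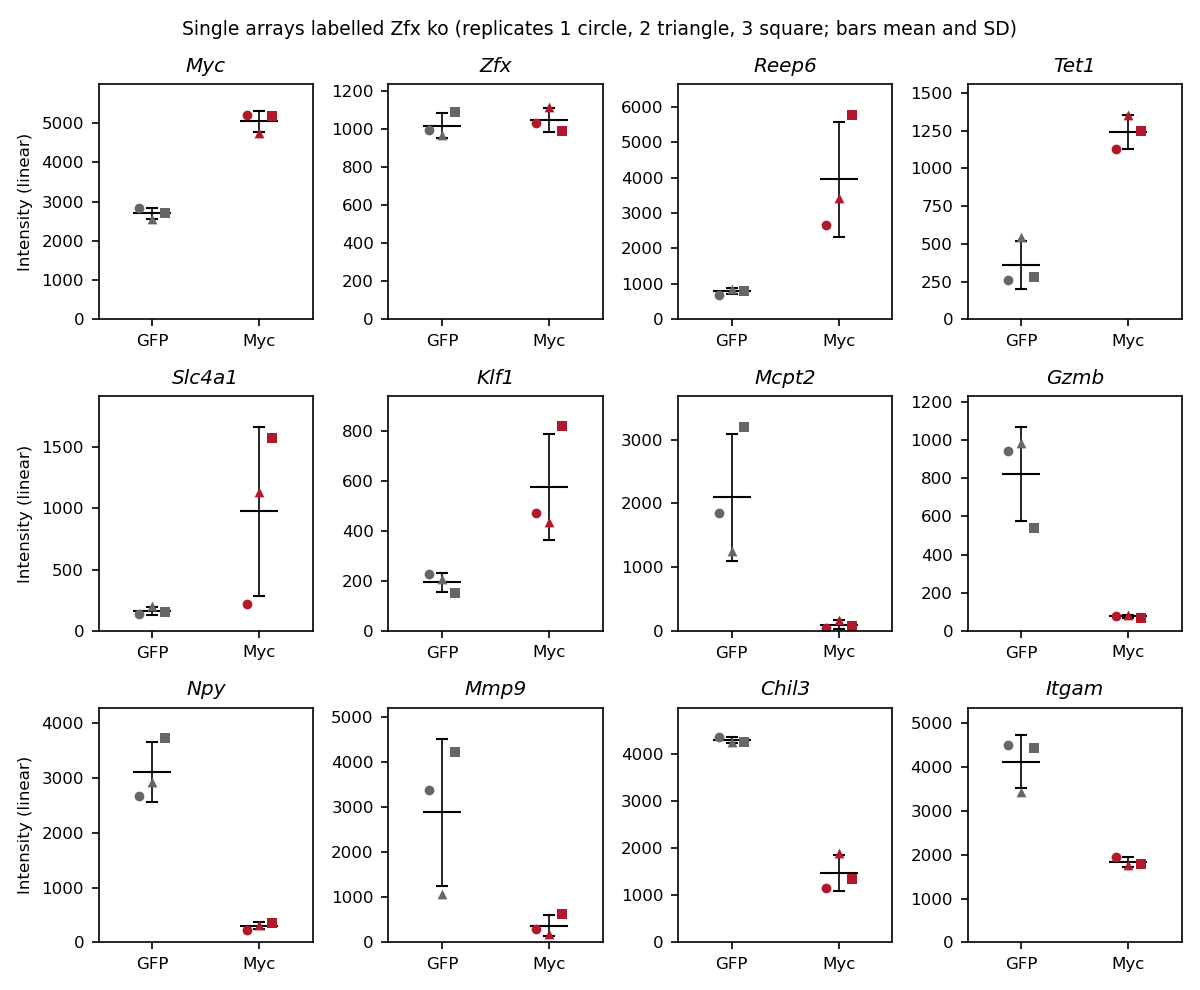
Linear intensity of 12 genes in each array labelled Zfx ko, GFP virus in grey and Myc virus in red, with symbols for replicates 1 to 3 and bars for the mean and SD of 3 arrays. Myc, Reep6, Tet1, Slc4a1 and Klf1 are higher and Mcpt2, Gzmb, Npy, Mmp9, Chil3 and Itgam lower in every Myc array, while the Zfx arrays overlap and Slc4a1 in Myc ko 1 (221) lies near the GFP arrays.

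Gene groups were described with 62 lists, by the members called and the median log2 difference. Over all genes 8.58% were higher and 4.59% lower, with a median of 0.006. Those shares take in many dim genes. Of the 10744 genes above the median intensity, tested alone, 1808 were higher and 1018 lower, which are larger shares. The shares higher of cytosolic ribosomal protein (14.5%), glycolysis (15%) and mitosis genes (9.68%), for example, were below that of these brighter genes. The share lower was 6.9% for monocyte, 10.7% for cytokine receptor and 11.1% for megakaryocyte genes, below or near that of the brighter genes. The part of intensity in the list counts was not tested. In 25 lists members were called only higher and in 14 only lower, 20 had both, and 3 had none. Markers of several cell types moved with the Myc virus. The summed intensity of 10 neutrophil markers was 74513 to 86384 with GFP and 44847 to 52738 with Myc, and 9 of the 10 fell. That of 10 mast cell markers was 11985 to 17149 and 4237 to 7975 (6 fell), and that of 10 red cell markers 5617 to 6585 and 8101 to 13462 (6 rose). That of 5 progenitor markers was 3987 to 4702 and 3060 to 3296 (1 fell, Cd34). These linear sums weigh bright markers most, such as Cd34 and, for mast cells, Cpa3, which did not pass without the block. The sums overlapped between GFP and Myc arrays for megakaryocyte, eosinophil, primary granule, monocyte, B lymphoid and T lymphoid markers. Without the block 0 of these markers were called. Megakaryocyte sums, for example, were 13214 to 18680 with GFP and 5461 to 16944 with Myc. The part of these cell types in the list values below was not tested.

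Genes for making ribosomes rose almost throughout. Of 48 ribosome biogenesis factors 41 rose and 0 fell, all 48 differences were positive, and the median was 0.59. Rrp9, part of the particle that cuts the ribosomal RNA precursor, stood at 888, 859 and 1017 with GFP and at 1617, 1572 and 2048 with Myc (1.89-fold, adjusted p = 0.00155). Nob1, an endonuclease of the small subunit, stood at 1165, 1264 and 1186 with GFP and at 2025, 2037 and 2109 with Myc (1.71-fold, 1.56 to 1.87, adjusted p = 2.65e-04). Both groups were tight and far apart. Wdr74 rose 1.84-fold and Gnl3, which encodes nucleostemin, 1.72-fold. Leaving out any single array of the 12 left 34 to 46 of the list higher.

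RNA polymerase I makes the large ribosomal RNAs and RNA polymerase III the 5S and transfer RNAs, and 17 of 31 of their subunits and factors rose and 0 fell (median 0.36; 11 without Myc ko 3). Polr1b rose from 1598, 1807 and 1870 to 2984, 2870 and 3217 (1.72-fold, adjusted p = 0.00104), Polr1c 1.65-fold and Polr3g 1.62-fold. Of the proteins of the finished ribosome, 8 of 55 cytosolic ribosomal protein genes rose and 0 fell, with a median of 0.14. That count was 24 with the block, 2 without Myc ko 3 and 4 without Myc ko 1 or GFP ko 1. Rpl14 rose 1.58-fold and Rpl22 1.34-fold.

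Of 18 cytosolic tRNA synthetases, which load amino acids onto transfer RNA, 15 rose and 0 fell (median 0.45), with Gars at 2258, 2450 and 2507 with GFP and 3274, 3440 and 3579 with Myc (1.43-fold, adjusted p = 0.00241). Of 40 initiation factors 16 rose and 0 fell (28 with the block), led by called genes such as Eif2b3 (1.77-fold), a subunit of the exchange factor for eIF2. Elongation and release factors had 9 of 15 higher and 0 lower, with Tsfm at 1.55-fold. Of 71 splicing factors and hnRNP proteins 30 rose and 0 fell (median 0.23), with Lsm7 at 1.64-fold, and of 52 nuclear pore and importin genes 30 rose and 0 fell (1 with the block; median 0.33), with Rcc1, the Ran exchange factor, at 1.58-fold.

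Of 51 RNA helicases measured, 23 rose and 2 fell. Ddx21, a nucleolar helicase, stood at 2286, 3101 and 2961 with GFP and at 4302, 4624 and 4618 with Myc (1.64-fold, adjusted p = 0.00311). The 2 that fell, Ddx58 (1.85-fold, adjusted p = 0.00379) and Dhx58 (1.41-fold, adjusted p = 0.0309; 0.122 without Myc ko 3), are sensors of viral RNA. Without Myc ko 3 the counts higher were 9 for synthetases, 7 for initiation factors, 9 for splicing and 13 for helicases. Without GFP ko 1 they were 9, 8, 11 and 14, and without Myc ko 2 splicing had 19 and helicases 15. Only Ddx58 was lower, and not Dhx58, when any of these 3 arrays or GFP ko 3 was left out.

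Of 26 nucleotide synthesis genes 14 rose and 1 fell, with a median of 0.45 (2 fell with the block). Ctps, which makes CTP, went from 336, 520 and 526 to 742, 890 and 952 (1.90-fold, adjusted p = 0.00502), while the exception was its paralog Ctps2, at 1496, 1603 and 1583 with GFP and 1328, 1319 and 1048 with Myc (1.27-fold lower, adjusted p = 0.0371). Prps1, which makes the ribose phosphate donor, and Adsl, of purine synthesis, each rose 1.70-fold. Of 17 one-carbon and serine genes 10 rose and 1 fell (median 0.44). Fpgs, which traps folate in the cell, stood at 503, 617 and 639 with GFP and at 1114, 1057 and 1143 with Myc (1.89-fold, adjusted p = 7.50e-04), and Slc19a1, the folate carrier, rose 1.70-fold. The exception was Aldh1l1, a folate dehydrogenase (1.27-fold lower, adjusted p = 0.0341). Ctps2 was lost without Myc ko 3 (0.111), GFP ko 3 (0.101), GFP ko 2 (0.0932), GFP ko 1 (0.068) or GFP wt 3 (0.0549). Aldh1l1 was lost without Myc ko 3 (0.125), GFP ko 3 (0.118), Myc ko 1 (0.0755), GFP ko 2 (0.0642) or Myc ko 2 (0.0526).

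Amino acid transporters moved both ways. Of 28 genes 7 rose and 3 fell. Besides Slc6a15, Slc43a1 stood at 555, 508 and 660 with GFP and at 1040, 1027 and 1846 with Myc (2.20-fold, adjusted p = 0.00499) and Slc38a5 rose 1.98-fold (adjusted p = 0.00924). Slc7a8 fell 2.01-fold, from 1962, 2235 and 1826 to 792, 1468 and 852, with an adjusted p of 0.0449. It missed the threshold without any ko array but Myc ko 2, at 0.0848 to 0.158 (highest without Myc ko 3), and without GFP wt 1 to 3 or Myc wt 3, at up to 0.0607. The count lower was 1 without Myc ko 3, GFP ko 1, GFP ko 3 or GFP wt 1. In polyamine metabolism 5 of 14 rose and 0 fell (1 with the block), among them the methionine salvage genes Mtap (1.69-fold) and Adi1 (1.67-fold). Odc1, the first enzyme of the pathway and a textbook Myc target, stood at 1001, 1711 and 1548 with GFP and at 1954, 2566 and 2198 with Myc. These did not overlap, but its adjusted p was 0.0533 (0.0012 with the block). In the integrated stress response list 6 of 20 rose (3 without Myc ko 3) and 1 fell (3 with the block), with Stc2 1.92-fold higher and Vldlr 2.44-fold lower.

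Of 78 mitochondrial ribosomal protein genes 43 rose and 0 fell (median 0.35). Mrps5 stood at 1159, 1145 and 1245 with GFP and at 1984, 1788 and 2178 with Myc (1.67-fold, adjusted p = 5.85e-04) and Mrpl9 rose 1.76-fold. A second probe set of Mrpl47 gave a log2 difference of 0.20 (adjusted p = 0.356) where the set used here gave 0.77. Mitochondrial tRNA synthetases had 12 of 16 higher and 0 lower (median 0.45), with Nars2 at 524, 545 and 581 with GFP and 886, 878 and 895 with Myc (1.61-fold, adjusted p = 4.09e-04). Protein import had 21 of 34 higher and 0 lower (median 0.35), with Tomm5 of the outer membrane pore at 1.87-fold, and mitochondrial chaperones and proteases 11 of 16 and 0, with Hspd1, which encodes Hsp60, at 1.61-fold. Twnk, the helicase of mitochondrial DNA, rose 1.93-fold, from 206, 218 and 256 to 454, 405 and 446 (adjusted p = 6.03e-04).

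Of 89 respiratory chain and ATP synthase genes 25 rose and 0 fell, with a median of 0.17, and 38 rose with the block. Its largest called rises, Ndufaf4 (1.74-fold), Ndufaf5 (1.51-fold) and Ndufaf6 (1.45-fold), encode assembly factors of complex I and not subunits. Citrate cycle genes had 8 of 21 higher and 0 lower (median 0.21), with Suclg2 at 1.49-fold. Glycolysis had 3 of 20 higher and 1 lower, with a median of 0.06 (5 higher with the block). Pdk1, which restrains pyruvate dehydrogenase, rose 2.02-fold (279, 306 and 346 with GFP; 551, 543 and 818 with Myc; adjusted p = 0.005) and Hk3, the hexokinase of myeloid cells, fell 1.96-fold (adjusted p = 0.00539). Without Myc ko 3 the counts higher were 23 for mitochondrial ribosomal proteins, 7 for synthetases, 10 for import, 6 for chaperones, 9 for the respiratory chain and 4 for the citrate cycle. Without GFP ko 1 they were 25 for ribosomal proteins, 12 for import, 7 for chaperones and 11 for the respiratory chain, and without Myc ko 2 they were 28 for ribosomal proteins and 16 for the respiratory chain.

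Cytosolic chaperones had 17 of 28 higher and 0 lower (1 with the block; median 0.37), with Fkbp4 at 1.55-fold and the chaperonin subunit Cct3 at 1.53-fold, though 9 rose without Myc ko 3 and 10 without GFP ko 1 or Myc ko 2. Of 47 proteasome genes 9 rose and 0 fell, a count that was 23 with the block (1 fell), 1 without Myc ko 3, 2 without GFP ko 1 and 5 without Myc ko 2. Psmg2, an assembly chaperone, rose 1.57-fold (adjusted p = 9.38e-04). In the unfolded protein response list 0 of 23 rose and 3 fell (8 with the block, 0 without Myc ko 3 and 1 without GFP ko 3), at 1.14-fold to 1.34-fold. Lysosome genes had 0 of 48 higher and 1 lower, Man2b1 (1.35-fold, adjusted p = 0.0364), while 40 of 48 differences were negative and 18 genes fell with the block. Man2b1 was lost without Myc ko 2, Myc ko 3, GFP ko 1 or GFP ko 3 (0.11 to 0.128), GFP wt 3 (0.0518) or Myc wt 3 (0.051). The list had 3 genes lower without Myc ko 1, 2 without GFP ko 2 and 0 without Myc ko 3, GFP ko 1, GFP ko 3 or GFP wt 3.

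Of 42 DNA replication genes 18 rose and 0 fell, and all 42 differences were positive, with a median of 0.20. Orc2, of the origin recognition complex, stood at 998, 1405 and 1270 with GFP and at 1777, 1984 and 2075 with Myc (1.60-fold, adjusted p = 0.00713). Pold2, a subunit of DNA polymerase delta, rose 1.53-fold. The count fell to 6 without Myc ko 3, 8 without GFP ko 1 and 11 without GFP ko 2. Of 31 mitosis genes 3 rose and 1 fell, by 1.18-fold to 1.37-fold, and the counts were 0 and 0 without Myc ko 3 or GFP ko 1, 1 and 0 without Myc ko 1 or GFP ko 2, and 4 and 0 without GFP ko 3.

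Among 26 G1 regulators 4 rose and 7 fell. Those that fell included 3 inhibitors of cyclin-dependent kinases: Cdkn2c, at 441, 395 and 461 with GFP and 268, 225 and 306 with Myc (1.63-fold, adjusted p = 0.0104), Cdkn2d (1.55-fold, adjusted p = 0.0151) and Cdkn1b (1.45-fold, adjusted p = 0.0402). The others that fell were the cyclin gene Ccnd3, Rbl2, E2f8 and Rbl1. E2f5 rose 1.71-fold (adjusted p = 0.00445), and E2f4, E2f6 and the kinase gene Cdk4 were the others that rose. The count lower was 3 without Myc ko 1 or GFP ko 3 and 4 without Myc ko 2, GFP ko 1 or Myc wt 1, and with the block 7 rose and 8 fell. Cdkn2d missed the threshold without GFP ko 3 (0.0582) or Myc ko 1 (0.0514), and Cdkn1b without any ko array but GFP ko 2, at up to 0.14 (GFP ko 3), nor without GFP wt 3 or Myc wt 1 to 3, at up to 0.0577. Bcl2, which blocks cell death, fell 1.89-fold, from 979, 756 and 957 to 466, 536 and 421 (adjusted p = 0.00632). Of 19 Bcl2 family genes 1 fell (5.26%, against 4.59% of all genes) and 1 rose, Bbc3, with a median of -0.04. With the block 2 rose and 2 fell. Bbc3 missed the threshold without any ko array but Myc ko 1, at up to 0.141 (Myc ko 3), and without several wt arrays. In the Myc and Max network Ruvbl1, a cofactor of Myc, rose 1.84-fold (adjusted p = 0.00178). Mxd1, an antagonist that also pairs with Max, fell 1.74-fold, from 2439, 2684 and 2699 to 1300, 1565 and 1650. Its adjusted p was 0.0391, and it missed the threshold without any 1 of the 6 ko arrays, at 0.0761 to 0.116, or without GFP wt 3, at 0.0549.

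Enzymes that methylate histones and arginine had 16 of 58 higher and 3 lower (5 lower with the block or without Myc ko 2). Smyd2, a lysine methyltransferase, stood at 446, 640 and 503 with GFP and at 1103, 1101 and 1086 with Myc (2.09-fold, adjusted p = 9.49e-04). The arginine methyltransferase genes Prmt7 (1.75-fold) and Carm1 (1.69-fold, adjusted p = 4.92e-04) rose as well. Terc, the RNA template of telomerase, rose 2.09-fold, from 437, 739 and 610 to 809, 1392 and 1604 (adjusted p = 0.0181; 0.0768 without Myc ko 3, 0.0695 without GFP ko 1, 0.0598 without Myc ko 2). Tert, its protein partner, stood between 62.0 and 67.5 in all 6 arrays, below the median intensity of all probe sets (131).

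**Figure D3:**
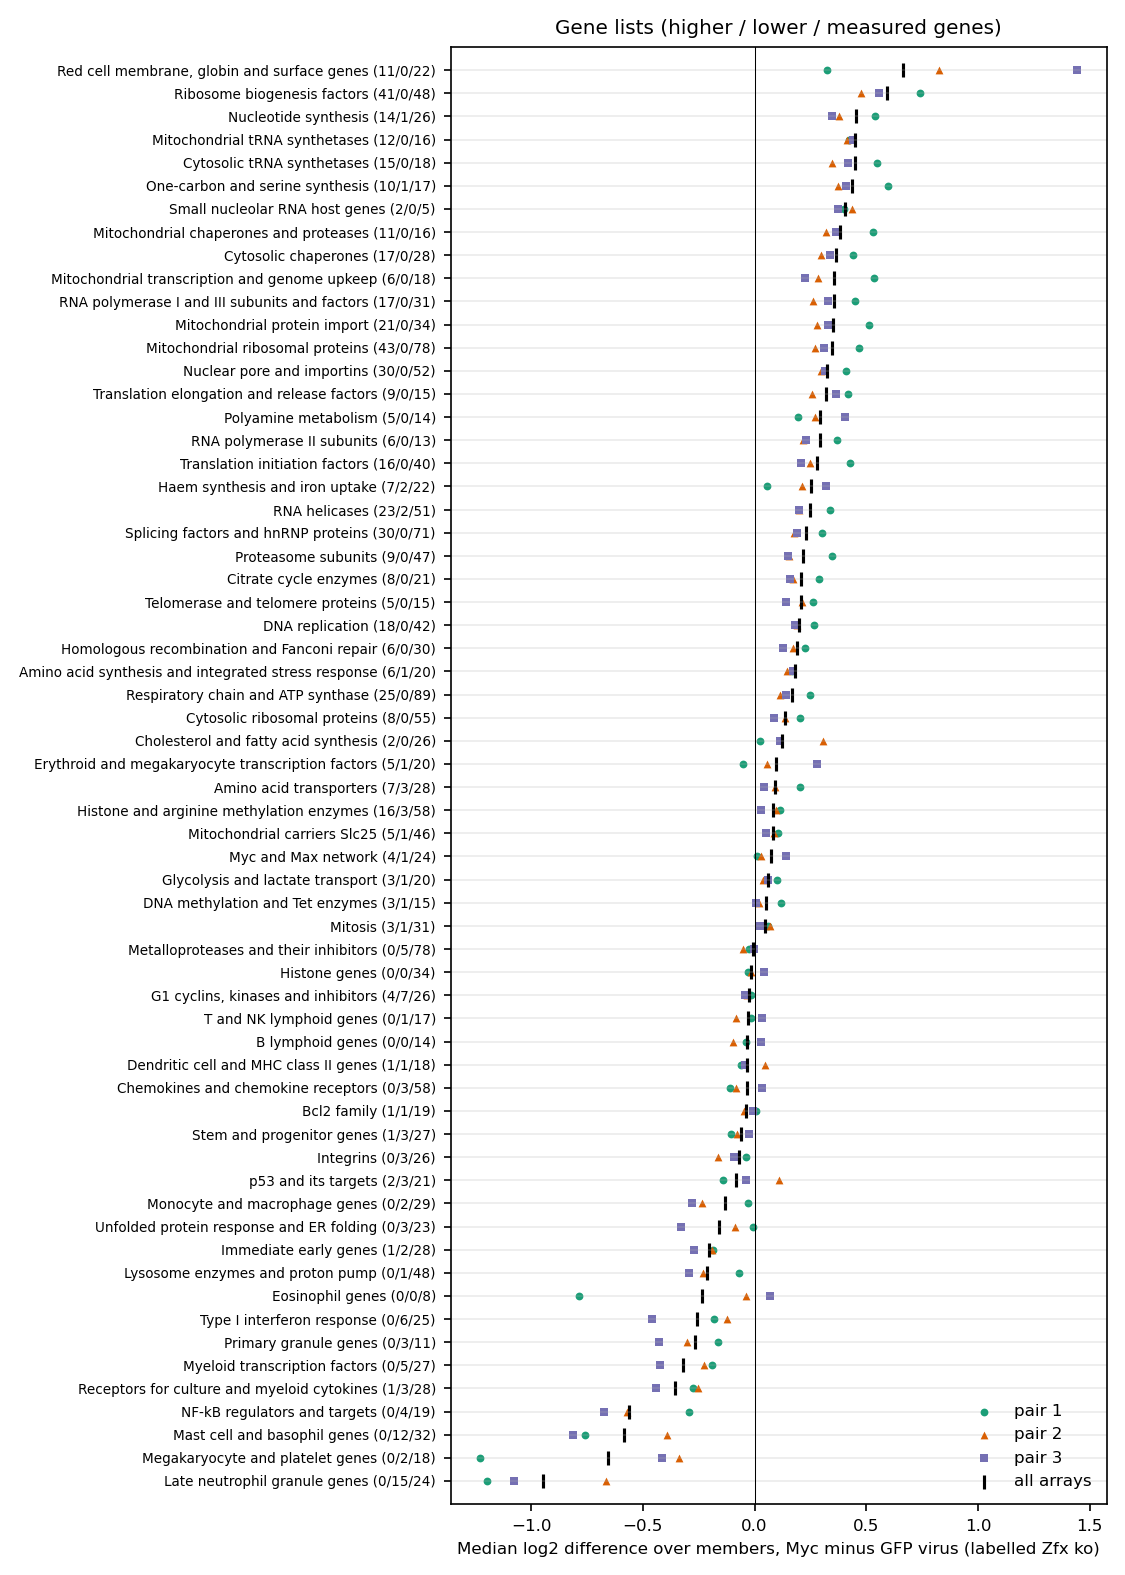
Median log2 difference (Myc minus GFP virus, labelled Zfx ko) over the members of each of 62 gene lists, with a dot for each same-numbered pair and a bar for the fit over all arrays; numbers in brackets are genes higher, lower and measured. Red cell genes (0.67) and ribosome biogenesis (0.59) lie highest and late neutrophil granule genes (-0.95) lowest, and the pairs spread most in the red cell and megakaryocyte lists.

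Red cell genes had the highest list median, with a spread between pairs to match. Of 22 genes of the red cell membrane, globins and surface 11 rose and 0 fell, and all 22 differences were positive. Their median was 0.67, made up of 0.32, 0.83 and 1.44 in pairs 1, 2 and 3. Slc4a1, band 3 of the red cell membrane, stood at 136, 203 and 153 with GFP and at 221, 1137 and 1572 with Myc (4.54-fold, 1.79 to 11.5, adjusted p = 0.0393). Its rise came mainly from Myc ko 2 and 3, and its adjusted p was 0.149 without Myc ko 3, 0.124 without Myc ko 2, 0.122 without GFP ko 1, 0.102 without GFP ko 3, 0.0588 without GFP ko 2 and 0.0559 to 0.0563 without GFP wt 1, GFP wt 3 or Myc wt 3.

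The membrane skeleton genes Ank1 and Sptb showed the same order of the Myc arrays. Ank1 stood at 246, 277 and 200 with GFP and at 451, 685 and 1355 with Myc (3.13-fold, adjusted p = 0.00778), and Sptb, beta spectrin, at 359, 400 and 357 against 599, 1194 and 2048 (3.06-fold, adjusted p = 0.0132). Myc ko 3 was highest in both genes. Klf1, a master regulator of red cell genes, stood at 227, 206 and 152 with GFP and at 473, 436 and 821 with Myc (2.88-fold, 2.02 to 4.11, adjusted p = 0.00272). Car2 rose 2.48-fold (adjusted p = 0.00572), and Cpox, of haem synthesis, 2.23-fold (adjusted p = 0.00854).

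The list count was 7 without Myc ko 3, GFP ko 1 or GFP ko 3. Gata1, which acts above Klf1, stood at 546, 520 and 616 with GFP and at 698, 967 and 1842 with Myc, apart but past the threshold only with the block (adjusted p = 0.137; 0.011 with it). Epor, the erythropoietin receptor gene, rose 2.07-fold (adjusted p = 0.0391; 0.103 without GFP ko 2, 0.0886 without GFP ko 3, 0.0792 without GFP ko 1, 0.0626 without Myc ko 3, and 0.052 to 0.0557 without GFP wt 1 or Myc wt 1 to 3). Of 14 red cell markers 10 were measured. Alas2, which defines haem synthesis in late red cells, lay between 73.3 and 99.0, below the median of all probe sets, in all 6 arrays. The other 4 markers were not analysed here. In haem synthesis and iron handling 7 of 22 rose and 2 fell: the iron exporter gene Slc40a1 (1.76-fold, adjusted p = 0.00705) and Alas1, the enzyme of non-erythroid cells (1.45-fold, adjusted p = 0.00476). That count higher was 4 without Myc ko 3 or GFP ko 3.

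Of 24 late neutrophil genes 15 fell and 0 rose, all 24 differences were negative, and the median was -0.95, with -1.20, -0.67 and -1.08 in pairs 1 to 3. Chil3, a secreted lectin, stood at 4378, 4273 and 4257 with GFP and at 1168, 1909 and 1349 with Myc (2.98-fold lower, 2.24 to 3.97). Itgam, the CD11b integrin chain, went from 4497, 3438 and 4449 to 1956, 1764 and 1779 (2.24-fold lower, adjusted p = 6.03e-04). In both genes the GFP and Myc arrays did not overlap. Anxa1 fell 2.64-fold (adjusted p = 0.0111) and Itgb2, the partner of Itgam, 1.87-fold (adjusted p = 0.00817). The list had 23 genes lower with the block, 8 without Myc ko 1 or GFP ko 1 and 7 without GFP ko 3.

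Of 11 primary granule genes 3 fell and 0 rose (8 fell with the block, 6 without Myc ko 1, 5 without GFP ko 2). The 3 were Cst7 (1.70-fold, adjusted p = 5.85e-04), Igsf6 (1.40-fold) and Ms4a3 (1.33-fold), which encode a protease inhibitor and membrane proteins and not the granule enzymes. Mpo, myeloperoxidase, stood at 13214, 11150 and 13275 with GFP and at 11828, 9644 and 9869 with Myc (adjusted p = 0.175; 0.019 with the block), with overlap. Elane, neutrophil elastase, gave an adjusted p of 0.266. Of 27 myeloid transcription factors 5 fell and 0 rose (1 with the block), with a median of -0.32. Spi1, which encodes PU.1, stood at 6252, 6681 and 6480 with GFP and at 5058, 5232 and 4332 with Myc (1.33-fold lower, adjusted p = 0.0166; 0.068 without Myc ko 3), and Cebpd fell 1.65-fold (adjusted p = 0.0141; 0.0568 without Myc ko 3, 0.055 without GFP ko 3). That list had 13 lower with the block, 1 without Myc ko 3 or GFP ko 3 and 3 without Myc ko 1, GFP ko 1 or Myc wt 3.

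In the mast cell and basophil list 12 of 32 genes fell and 0 rose, with a median of -0.59. Beside Mcpt2 and Gzmb these included Tph1, which starts serotonin synthesis, at 589, 1272 and 624 with GFP and 83.6, 251 and 121 with Myc (5.69-fold lower, adjusted p = 0.018). They also included Fcer1a, the IgE-binding chain of the IgE receptor, at 929, 817 and 1112 with GFP and 114, 458 and 259 with Myc (3.97-fold lower, adjusted p = 0.021). Tph1 missed the threshold without Myc ko 3 (0.0682), Myc ko 1 (0.0595) or GFP ko 2 (0.0553), and Fcer1a without GFP ko 3 (0.0692), GFP ko 1 (0.0619) or Myc ko 3 (0.0609). Other defining genes did not pass: Cpa3, mast cell carboxypeptidase, stood at 8639, 6421 and 8363 with GFP and at 2330, 4998 and 4724 with Myc (adjusted p = 0.0778; 0.024 with the block), and Hdc, which makes histamine, gave an adjusted p of 0.577. The list count was 4 without Myc ko 3, 5 without GFP ko 3 and 6 without Myc ko 1 or GFP ko 1.

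In the megakaryocyte and platelet list all 18 differences were negative (median -0.66), yet 2 genes passed, Mmrn1 at 5.21-fold and Clec1b at 2.51-fold lower, and 8 with the block. The pair medians were -1.23, -0.34 and -0.42. Mmrn1, a platelet granule protein gene, stood at 444, 798 and 740 with GFP and at 75.9, 177 and 139 with Myc. Pf4, platelet factor 4, stood at 6610, 8445 and 8771 with GFP and at 2959, 7821 and 7982 with Myc (adjusted p = 0.743), so that only Myc ko 1 was far below. Ppbp, the platelet chemokine gene, stood at 9985, 11223 and 12024 with GFP and at 902, 2697 and 2473 with Myc, far apart, but with an adjusted p of 0.0859 (0.012 with the block).

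**Figure D4:**
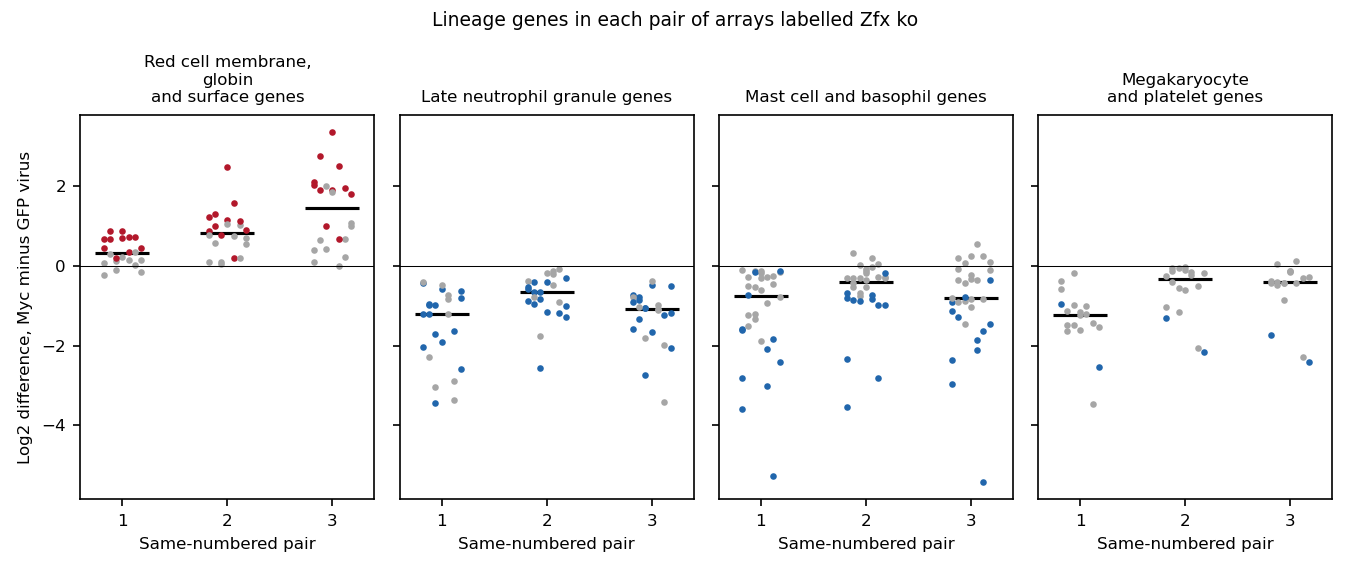
Log2 difference (Myc minus GFP virus) of each gene of 4 lineage lists in same-numbered pairs 1, 2 and 3 of arrays labelled Zfx ko, red for genes called higher, blue lower and grey not called, with a bar at the median. The red cell median is 0.32, 0.83 and 1.44, the late neutrophil median -1.20, -0.67 and -1.08, and the megakaryocyte median is lowest in pair 1 at -1.23.

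Cd34, a progenitor surface protein, fell 2.02-fold, from 2201, 2319 and 2402 to 1415, 975 and 1072 (adjusted p = 0.0136; 0.0565 without Myc ko 3), while Kit overlapped between groups (adjusted p = 0.532). Lin28b, an RNA-binding protein gene of fetal progenitors, stood at 42.6, 44.8 and 44.3 with GFP and at 54.7, 165 and 122 with Myc (2.35-fold, adjusted p = 0.0218; 0.0904 without Myc ko 3, 0.0686 without GFP ko 1, 0.0586 without GFP ko 3, 0.0507 without Myc ko 2). The stem and progenitor list had 1 of 27 higher and 3 lower. With the block these were 3 and 6, without Myc ko 1 4 and 2, without Myc ko 2 0 and 4, without Myc ko 3 0 and 0, without GFP ko 1 0 and 1, and without GFP ko 3 0 and 2. Among 28 cytokine receptor genes and their partners 1 rose, Epor, and 3 fell (14 with the block, 2 without Myc ko 3, 5 without Myc wt 1), with a median of -0.36, among them the TNF receptor gene Tnfrsf1a at 1.58-fold.

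NF-kB genes had 4 of 19 lower and 0 higher with a median of -0.56, among them Cflar, an inhibitor of caspase 8, at 625, 689 and 751 with GFP and 453, 519 and 379 with Myc (1.54-fold lower, adjusted p = 0.00798). With the block 11 fell and 1 rose, and the count lower was 1 without Myc ko 1, GFP ko 2 or Myc ko 3. Type I interferon genes had 6 of 25 lower and 0 higher (12 with the block, 2 without Myc ko 3, GFP ko 1 or GFP ko 3), with Usp18 1.47-fold lower (adjusted p = 0.00776). Timp2, a metalloprotease inhibitor gene, fell 2.72-fold, from 226, 174 and 354 to 88.5, 87.3 and 88.9 (adjusted p = 0.00792). Monocyte genes had 2 of 29 lower and 0 higher (9 lower and 1 higher with the block, 1 lower without Myc ko 3, GFP ko 1 or GFP ko 3), with Fcgr4 2.18-fold lower. B lymphoid (14 genes), eosinophil (8) and histone genes (34) had 0 called either way, while with the block 1 eosinophil and 2 histone genes were lower. Of 4 T lymphoid markers measured, all lay below the median of all probe sets.

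The same contrast in cells labelled Zfx wt gave 1851 calls (9.28%). Its group means use none of these 6 arrays, but its arrays carry the same replicate numbers. Its p-values use a variance per gene that was fitted over the arrays of both genotypes. The calls in ko and in wt are therefore not independent of each other. Higher in both were 1055 genes, which are 61.7% of those higher in ko and 85.7% of those higher in wt. Lower in both were 507, which are 55.4% and 81.8%, and 0 genes were called in opposite directions. Of the 1711 genes higher in ko 1703 had a positive difference in wt, and of the 915 lower 909 had a negative one. The differences were smaller in wt. Genes higher in ko had a median of 0.46 in ko and 0.38 in wt, and genes lower -0.52 and -0.43. They were chosen for their ko values, so some shrinkage in wt follows from the choice. Across all genes the 2 sets of differences correlated at r = 0.867 and rho = 0.744, and genes are not independent replicates.

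The difference between the 2 Myc effects was tested with the interaction. It called 0 genes with limma at adjusted p under 0.05 (0%), with 343 genes at an unadjusted p under 0.05 and a smallest adjusted p of 0.312. With the block 1 gene passed, Nck2, an adaptor protein gene, with a log2 difference of -0.56 in ko and 0.24 in wt (adjusted p = 0.0198 with the block). No gene above is therefore called particular to the ko cells. The 5 lowest p were those of Lgr4 (log2 difference 0.19 in ko and 1.25 in wt), Pkhd1l1 (1.03 and 0.22), Cenpv (1.69 and 0.67), Ncs1 (-0.05 and 0.71) and Cysltr2 (-0.66 and -0.13). Leaving out Myc ko 1 gave 4 interaction calls and leaving out Myc wt 1 gave 1.

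For the lineage genes the values of both genotypes are as follows. Red cell genes had 11 of 22 members higher in ko (median 0.67) and 1 in wt (median 0.25). Their median interaction was 0.74, with 0 members past the interaction threshold. Slc4a1 differed by 2.18 in ko and 0.46 in wt. The late neutrophil list had medians of -0.95 and -0.98, with 15 and 12 genes lower. Mast cell genes had medians of -0.59 and -0.44, where Fcer1a differed by -1.99 in ko and -0.09 in wt and Npy, outside the list, by -3.37 and -1.52. Ribosome biogenesis had 41 of 48 genes higher in each genotype, with medians of 0.59 and 0.61, and DNA replication had 18 higher in ko and 5 in wt with medians of 0.20 and 0.10.

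**Figure D5:**
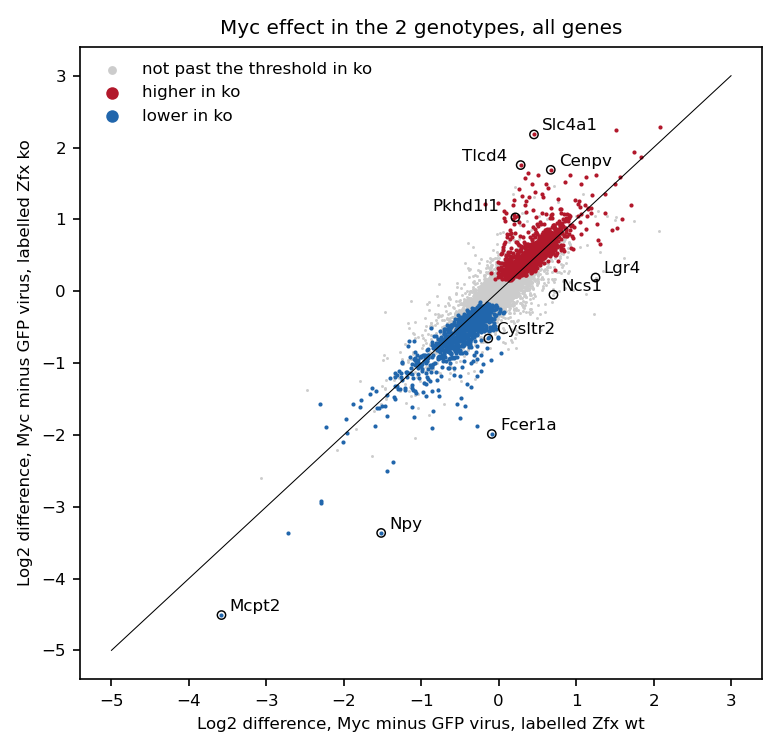
Log2 difference (Myc minus GFP virus) of each gene in arrays labelled Zfx wt (horizontal) and Zfx ko (vertical), red for genes called higher in ko, blue lower and grey not called, with the line of equal differences. Most genes follow the line (r = 0.867), and the circled genes named above, such as Slc4a1 (2.18 in ko, 0.46 in wt) and Lgr4 (0.19 and 1.25), lie off it without an interaction call.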

How the data were processed

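RNA (200 ng a sample, biotin labelled) was measured on 12 gene arrays. The authors deposited 1 linear intensity per probe set and array, made with RMA per the submitters' processing notes; version, array software and build: not given in the sources used here. Of 35556 probe sets 21789 have 1 gene symbol, 1621 several and 12146 none. Those with 1 symbol were reduced to the brightest per gene over the 12 arrays, which gave 19938 genes (19856 matched RefSeq by identifier). No dim gene was removed. After log2, limma 3.58.1 in R 4.3.3 (lmFit, eBayes) fitted 4 group means over all 12 arrays; the contrasts were Myc against GFP in ko, in wt, and the interaction. The script was tested on simulated data. Intervals are 95% for single genes, unadjusted.

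Labels give replicate numbers but no pairing. Across groups, the deviations of equally numbered arrays from their group mean had correlations of 0.40 to 0.85 (18 pairs, median 0.64, all over 0.1). From these values the numbers were read as pairing the arrays, which the main fit did not use. Other numbers had a median of -0.42. Deviations from a mean cancel within a group, so that negative value follows largely from the positive ones and is no separate evidence. Blocked values stand beside a result where they change a call or move a count over 1.5 times.

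Named genes are Zfx, Myc, the 15 largest rises and falls past the threshold without overlap, up to 4 called members a list and the 5 lowest interaction p; predicted and small RNA genes and smell receptors were left out of the top lists. Other genes named were chosen after their values were seen, among them marker genes that did not pass, genes with a printed promoter, and the exceptions within a list. Members and lists were chosen with earlier results of these data known. Alternatives were the block, a second quantile normalization, median centring, a trended and robust prior, array weights, ko arrays alone, genes above the median intensity, all probe sets, a 2-fold minimum and each array left out.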

Additional observations from a re-analysis of the deposited data

How the results depend on the processing

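The counts of 1711 genes higher and 915 lower became 2895 and 2064 with the replicate block, which also called 1 interaction gene instead of 0. Only the 6 ko arrays gave 876 and 542, a 2-fold minimum 77 and 113, and array weights 1464 lower. Leaving out 1 of the 12 arrays gave 935 to 1665 higher, 460 to 890 lower and 0 to 4 interaction calls. Quantile normalization (1741 and 1071), median centring (1619 and 741), the trended and robust prior (1555 and 864), genes above the median intensity (1808 and 1018) and all probe sets (1698 and 879) stayed within 1.5 times. Of 227 named genes called in ko, 145 passed whichever array was left out, the highest adjusted p was 0.168, and 0 changed direction in any alternative. The replicate block removed 0 of the 2626 calls. RMA values carry no background estimate, so dim genes have no detection call, and 3 arrays a group limit what small changes can pass.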
